A study of Mus musculus with 12 samples.

Results

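The 8 genes Cdhr1, Doc2g, Tbx21, Eomes, Shisa3, Nmb, Th and Trh were chosen by name as markers of neurons of the olfactory bulb, and they are 8 of the 35272 genes to which the transcripts were matched. They were read in RNA-seq libraries labelled prefrontal cortex, from female mice of the inbred strain C57BL/6JN. Mice aged 4 months (young) or 20 months (old) had received an intraperitoneal injection of saline or of the opioid analgesic morphine (3 mg/kg). Young saline mice, young morphine mice, old saline mice and old morphine mice thus form 4 groups, of 3 libraries each. The study's title names age dependence of the morphine response as its question, and how long after the injection tissue was taken is not given in the sources used here. The labels do not say whether the 3 replicates of a group were separate animals, so each p-value measures the spread between these samples, which may be technical.

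The olfactory bulb is the first relay of smell in the brain and lies in front of the frontal cortex. Its output neurons, the mitral and tufted cells, receive input from the olfactory nerve in glomeruli and send glutamatergic axons to the olfactory cortex. Around the glomeruli sit local interneurons, many of them GABAergic, of which one kind also makes dopamine and carries Th. These cells are renewed through adult life by neuroblasts that migrate into the bulb. Of the 8 genes, Cdhr1 encodes a photoreceptor-type cadherin that is abundant in mitral and tufted cells, Doc2g a C2-domain protein, Tbx21 and Eomes T-box transcription factors, Shisa3 a transmembrane adaptor protein and Nmb the precursor of the peptide neuromedin B. Th encodes tyrosine hydroxylase, the rate-limiting enzyme of catecholamine synthesis, and Trh the precursor of thyrotropin-releasing hormone.

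All 8 genes had their 4 highest TPM values (a level scaled for transcript length and library total) in the same 4 libraries: young morphine replicate 3, old saline replicates 1 and 2, and old morphine replicate 1. These 4 libraries come from 3 groups, and no young saline library was among them. Of the 16796 genes tested, 220 (1.31%) shared that set of 4 highest libraries, and in 12 (0.0714%) the lowest of the 4 was also at least 2 times the highest of the other 8. Among the 8 marker genes, 4 were apart by that much: Cdhr1, Doc2g, Th and Eomes. The set of 4 libraries was taken from the values of these 8 genes, which were chosen with earlier results of these data known. These shares are thus a description and not a test. Summed over the 8 genes, the level was 105 TPM in young morphine replicate 3, 94.8 TPM in old morphine replicate 1, 52.3 TPM in old saline replicate 2 and 47.6 TPM in old saline replicate 1. The other 8 libraries held 6.24 to 12.7 TPM. In bulk tissue, fewer cells of a type and less RNA per cell cannot be told apart.

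Depth did not follow this order. Libraries held 20236452 to 40480571 estimated reads apart from young morphine replicate 2 with 148856113, and the 4 libraries held 38161111, 37617472, 27019056 and 31678754 in the order young morphine 3, old saline 1, old saline 2 and old morphine 1. A floor of 3 reads, which covers counting error only, came to 0.0202 CPM (reads scaled to the library total) in the deepest library and 0.148 CPM in the shallowest. Cortical markers were read beside the tissue label. Over all 12 libraries Slc17a7, the vesicular glutamate transporter of cortical excitatory neurons, stood at 698 to 1010 TPM. Cux2, a transcription factor of upper-layer cortical neurons, stood at 139 to 194 TPM. Fezf2 and Neurod6, cortical genes named after their values were seen, varied more, at 6.11 to 34.6 and 43.3 to 97.2 TPM. Both were lowest in old saline replicate 2. Levels of cortical genes cannot show whether other tissue was also present, and this was not tested.

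**Figure D1:**
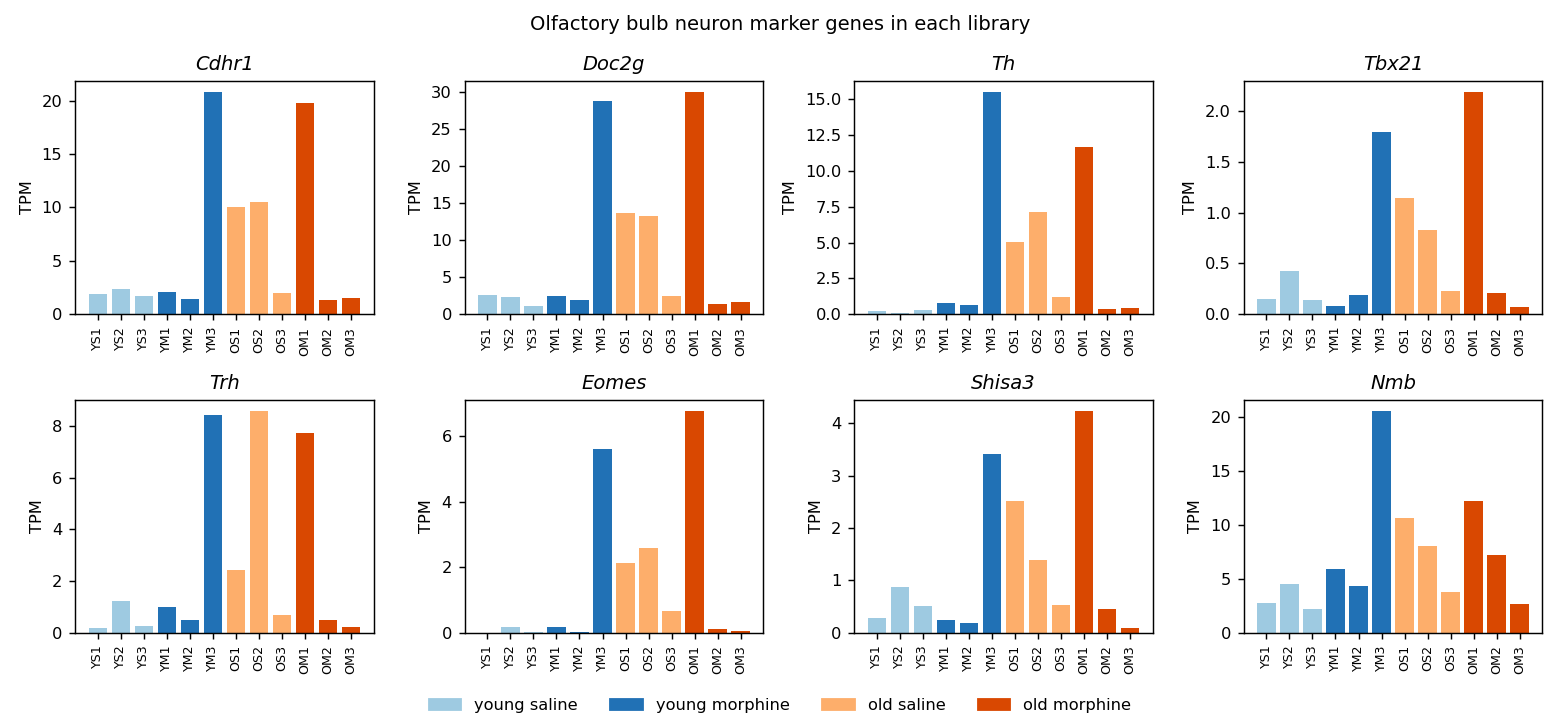
TPM of each of the 8 marker genes (vertical axes, 1 panel per gene, each with its own scale) in the 12 libraries; Y and O stand for young and old, S and M for saline and morphine, and the digit is the replicate. YM3, OS1, OS2 and OM1 hold the 4 tallest bars in every panel, with Cdhr1 at 10.0 to 20.8 TPM there and at 1.31 to 2.32 TPM in the other 8 libraries.

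Sequence upstream of the start site was looked at because the 8 genes moved together over libraries. All 8 have an entry in RefSeq's promoter table (GRCm38.p6), which runs from 250 bases before to 50 bases after the start. Windows were searched on both strands for TGACGTCA (the cAMP response element), AGGTGTGA (a T-box half-site), TAATTA (a homeodomain core) and TATAA (the core of the TATA box); no match overlapped another. The 4 windows with a match are shown over their 250 upstream bases, 5′ to 3′ on the gene's strand, with the matched letters in capitals.
Cdhr1: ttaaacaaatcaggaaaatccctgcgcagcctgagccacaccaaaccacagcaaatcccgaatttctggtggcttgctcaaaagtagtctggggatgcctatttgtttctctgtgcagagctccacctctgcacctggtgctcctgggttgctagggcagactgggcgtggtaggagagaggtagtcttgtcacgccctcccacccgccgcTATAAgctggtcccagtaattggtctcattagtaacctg
Th: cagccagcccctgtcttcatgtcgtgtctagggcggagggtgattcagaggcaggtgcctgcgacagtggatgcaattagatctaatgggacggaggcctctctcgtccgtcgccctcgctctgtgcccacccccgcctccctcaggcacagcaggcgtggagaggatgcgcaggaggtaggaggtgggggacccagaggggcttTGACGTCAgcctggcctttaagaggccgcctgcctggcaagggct
Eomes: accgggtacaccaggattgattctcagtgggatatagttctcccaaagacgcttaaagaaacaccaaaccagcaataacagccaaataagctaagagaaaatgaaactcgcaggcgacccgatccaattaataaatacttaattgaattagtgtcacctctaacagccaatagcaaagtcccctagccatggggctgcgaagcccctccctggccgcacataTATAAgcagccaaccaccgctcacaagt
Trh: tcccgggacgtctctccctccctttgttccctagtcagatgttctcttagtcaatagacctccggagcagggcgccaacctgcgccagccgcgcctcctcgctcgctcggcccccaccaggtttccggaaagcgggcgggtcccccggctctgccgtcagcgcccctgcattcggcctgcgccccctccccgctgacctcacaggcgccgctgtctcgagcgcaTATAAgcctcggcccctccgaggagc
These stretches lie at chr14:37098348-37098597 on the minus strand for Cdhr1, at chr7:142899996-142900245 on the minus strand for Th, at chr9:118477939-118478188 on the plus strand for Eomes and at chr6:92244651-92244900 on the minus strand for Trh. TATAA began 39 bases before the start of Cdhr1, 28 before Eomes and 26 before Trh, so 3 of the 8 windows held it, against 24.9% of all 32851 windows. TGACGTCA began 45 bases before the start of Th, 1 of 8 windows against 1.79% of all. AGGTGTGA and TAATTA were in 0 of the 8 windows, where 1.28% and 5.29% of all windows held them. GC content of the 8 windows ranged from 47.3% in Eomes to 70% in Shisa3, with a median of 52.7% over all windows. The 8 promoters thus had no searched motif in common, and a match is a description of letters only.

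Cdhr1 and Doc2g were the clearest of the output-neuron genes. Cdhr1 (chromosome 14, 37077857 to 37098347, minus strand, GRCm38) stood at 1.87, 2.32 and 1.74 TPM in young saline replicates 1 to 3 and at 2.04, 1.44 and 20.8 TPM in young morphine. In old saline it stood at 10.0, 10.5 and 2.01 TPM, and in old morphine at 19.8, 1.31 and 1.48 TPM. The 4 high values were thus between 4.33 and 8.96 times the highest of the other 8 libraries, and each group that held a high library also held at least 1 low one. Cdhr1 has a single annotated transcript of 17 exons, and 1821, 919, 690 and 1547 estimated reads lay behind the 4 high values. In the other 8 libraries it had 66 to 504 reads, the most in the deepest.

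Doc2g (chromosome 19, 4003313 to 4007005, plus strand) gave 2.52, 2.27 and 1.07 TPM in young saline, 2.44, 1.88 and 28.8 TPM in young morphine, 13.7, 13.2 and 2.48 TPM in old saline, and 30.0, 1.41 and 1.70 TPM in old morphine. Its lowest high library was 5.24 times the highest of the other 8, the widest gap of the 8 genes. The protein-coding transcript Doc2g-201 took 87.9% of its reads over the 12 libraries and 3 retained-intron transcripts took the rest. Its share was 90.9% in the 4 high libraries and 76.8% in the other 8. Doc2g overlaps the gene model Gm49405 on the same strand, with a mean of 1.1 TPM, so its values are uncertain to that extent.

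The T-box genes were lower in level. Eomes (chromosome 9, 118478212 to 118486132, plus strand), which in the bulb marks mitral and tufted cells, was listed at 0, 0.166 and 0.0304 TPM in young saline, 0.171, 0.0215 and 5.6 TPM in young morphine, 2.13, 2.60 and 0.647 TPM in old saline, and 6.78, 0.113 and 0.0521 TPM in old morphine. Young saline replicates 1 to 3 had 0, 6 and 1 reads of Eomes, and the 4 high libraries had 320, 125, 108 and 298. Old saline replicate 3 stood between them, with 37 reads. The highest value was 40.2 times the median of the 12 libraries, the widest spread of the 8 genes. Tbx21 (chromosome 11, 97098071 to 97115331, minus strand), also a factor of T and natural killer cells, had 0.152, 0.421 and 0.135 TPM in young saline and 0.085, 0.184 and 1.80 TPM in young morphine. In old saline it had 1.15, 0.829 and 0.232 TPM, and in old morphine 2.19, 0.210 and 0.0743 TPM. Tbx21 had 3 to 31 reads in the 8 lower libraries, and its lowest high value, from 26 reads, was 1.97 times the highest of those.

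Shisa3 and Nmb had the least separation. Shisa3 (chromosome 5, 67607882 to 67623552, plus strand) stood at 0.279, 0.864 and 0.515 TPM in young saline, 0.237, 0.187 and 3.41 TPM in young morphine, 2.51, 1.38 and 0.535 TPM in old saline, and 4.24, 0.449 and 0.0915 TPM in old morphine. Shisa3 overlaps Atp8a1, a flippase gene of the opposite strand with a mean of 195 TPM. Reads from the 2 strands cannot be separated where counting ignores strand, and that setting is not given in the sources used here. Nmb (chromosome 7, 80902227 to 80905076, minus strand) stood at 2.75, 4.47 and 2.24 TPM in young saline, 5.88, 4.33 and 20.6 TPM in young morphine, 10.6, 8.07 and 3.79 TPM in old saline, and 12.2, 7.23 and 2.63 TPM in old morphine. Its lowest high value was 1.12 times the highest of the other 8 libraries, so that old saline replicate 2 and old morphine replicate 2 were close. Of the reads of Nmb over the 12 libraries, 39.5% were assigned to the protein-coding Nmb-201, 25.1% to the protein-coding Nmb-202 and 33.9% to Nmb-203, a retained-intron transcript. Nmb-201 took 52.8% and Nmb-203 26.7% in the 4 high libraries, against 23.3% and 42.7% in the other 8. Nmb also overlaps Sec11a on the same strand (mean 37 TPM), and its values are uncertain for both reasons.

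Th and Trh, which are not output-neuron markers by this grouping, were high in the same 4 libraries. Th (chromosome 7, 142892752 to 142931128, minus strand) stood at 0.234, 0.0968 and 0.270 TPM in young saline, 0.794, 0.605 and 15.5 TPM in young morphine, 5.01, 7.14 and 1.21 TPM in old saline, and 11.7, 0.378 and 0.395 TPM in old morphine. All 3 young saline libraries lay below all 3 of young morphine and all 3 of old saline, where the young saline values rested on 9, 3 and 3 reads. The 1.21 TPM of old saline replicate 3 came from 12 reads. On the CPM scale, which takes no account of transcript length, that library had 0.319 CPM and young morphine replicate 1 had 0.703 CPM. Library totals were adjusted by TMM normalization for these CPM values, unlike those of the floor. Th-201, a protein-coding transcript of 13 exons, took 98.8% of the reads of Th. Trh (chromosome 6, 92242061 to 92244650, minus strand), a single-transcript gene, stood at 0.176, 1.22 and 0.242 TPM in young saline, 1.01, 0.488 and 8.43 TPM in young morphine, 2.43, 8.60 and 0.672 TPM in old saline, and 7.75, 0.5 and 0.213 TPM in old morphine. It was the only one of the 8 genes whose highest value was in old saline replicate 2. Cdhr1, Th and Nmb were highest in young morphine replicate 3, and the 4 genes Doc2g, Tbx21, Eomes and Shisa3 in old morphine replicate 1.

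In TPM, Doc2g was the highest of the 8 genes in each of the 4 libraries and Tbx21 the lowest, whereas Nmb was the highest in each of the other 8. The order between them was not fixed: Cdhr1 and Nmb stood at 20.8 and 20.6 TPM in young morphine replicate 3, at 10.0 and 10.6 TPM in old saline replicate 1 and at 19.8 and 12.2 TPM in old morphine replicate 1. Within the 4 libraries the genes kept proportions that were close for some and loose for others. The TPM of Doc2g was 1.26 to 1.51 times that of Cdhr1, the narrowest range of the 7 genes set against Cdhr1, and that of Th was 0.498 to 0.742 times. Trh had the widest range, from 0.242 times the TPM of Cdhr1 in old saline replicate 1 to 0.820 times in old saline replicate 2. By reads, Trh made up 6.03% of Trh and Cdhr1 reads together in the former (exact Clopper-Pearson 95% interval 4.62 to 7.71) and 18.1% in the latter (15.5 to 20.8), intervals that cover counting error only. Nmb ran the other way, with 0.615 to 1.05 times the TPM of Cdhr1 in the 4 libraries and 1.29 to 5.50 times in the others.

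**Figure D2:**
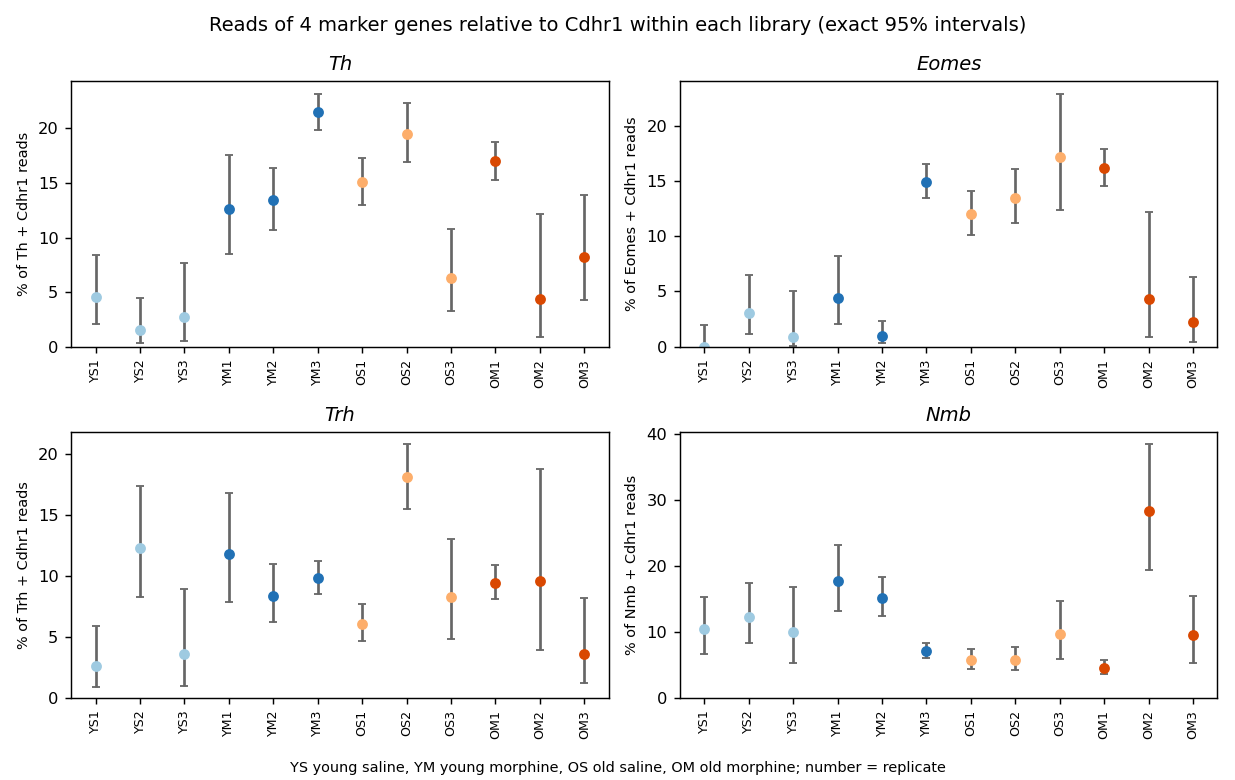
Reads of Th, Eomes, Trh and Nmb as a percentage of that gene's reads plus those of Cdhr1 (vertical axes) in each of the 12 libraries; points are single libraries, bars are exact Clopper-Pearson 95% intervals for counting error, and Y and O stand for young and old, S and M for saline and morphine. Eomes made up 12 to 17.2% in YM3, OS1, OS2, OS3 and OM1, and Trh was highest in OS2 at 18.1%.

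The dopaminergic marker was set against the output-neuron markers within each library, as the TPM of Th over the summed TPM of Cdhr1, Doc2g, Tbx21, Eomes, Shisa3 and Nmb. This ratio was 0.191 in young morphine replicate 3, 0.125 in old saline replicate 1, 0.195 in old saline replicate 2 and 0.156 in old morphine replicate 1. It was also 0.125 in old saline replicate 3, a library in which the 6 output-neuron markers summed to 9.69 TPM. The remaining 7 libraries had ratios of 0.00921 to 0.0753. On the log2 scale the ratio was -5.39 ± 1.22 in young saline, -3.30 ± 0.786 in young morphine, -2.79 ± 0.372 in old saline and -3.81 ± 1.08 in old morphine (mean ± SD, n = 3). The 3 young saline ratios lay below those of young morphine and of old saline and overlapped those of old morphine, and the difference was not tested. By reads, Th made up 6.32% of Th and Cdhr1 reads together in old saline replicate 3 (exact Clopper-Pearson 95% interval 3.31 to 10.8), which overlaps the 4.52% of young saline replicate 1 (2.09 to 8.41).

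No difference between the study's groups passed the test for any of the 8 genes. In old against young mice under saline, the fitted log2 fold changes were 1.86 ± 1.4 (SE) for Cdhr1, 2.07 ± 1.53 for Doc2g, 1.51 ± 1.39 for Tbx21, 5.20 ± 2.85 for Eomes, 1.39 ± 1.48 for Shisa3, 0.92 ± 0.77 for Nmb, 4.52 ± 2.33 for Th and 2.75 ± 1.73 for Trh, all higher in old mice. By edgeR's quasi-likelihood test with Benjamini-Hochberg adjustment over 16796 genes, adjusted p ran from 0.445 for Th to 0.73 for Shisa3. So 0 of 8 passed, where 0.464% of all genes did, and 0 of 8 had an unadjusted p under 0.05, where 13.5% did. As group means ± SD, Cdhr1 stood at 1.98 ± 0.307 TPM in young saline and 7.52 ± 4.78 TPM in old saline, and Th at 0.200 ± 0.0913 and 4.45 ± 3.00 TPM (n = 3). The groups did not overlap for 2 of the 8, Th and Eomes, where 9.15% of all genes were higher without overlap. The median of the 8 log2 fold changes was 1.97, beside 0.009 over all genes tested.

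In morphine against saline in young mice, 1 library of the morphine group was high. The log2 fold changes were 1.87 ± 1.39 for Cdhr1, 2.23 ± 1.52 for Doc2g, 1.31 ± 1.38 for Tbx21, 5.21 ± 2.84 for Eomes, 1.02 ± 1.48 for Shisa3, 1.47 ± 0.75 for Nmb, 4.90 ± 2.30 for Th and 2.42 ± 1.72 for Trh, with edgeR's adjusted p from 0.591 for Th to 0.907 for Shisa3. Again 0 of 8 passed, where 0% of all genes did, and 0 of 8 had an unadjusted p under 0.05, where 9.11% did. This comparison and the one of age under saline share the young saline libraries. The groups did not overlap for Th alone, where 8.26% of all genes were higher without overlap. The median over the 8 genes was 2.05, beside -0.002 over all genes. Without young morphine replicate 3, the log2 fold changes of Cdhr1, Doc2g, Tbx21 and Shisa3 turned to -0.27, -0.07, -0.76 and -1.46, and those of Th, Trh, Nmb and Eomes were 1.98, 0.32, 0.41 and 0.34. That library was the highest of its group for all 8 genes, so a fall follows from leaving it out.

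In old mice and under morphine, where both groups compared held at least 1 high library, fold changes were small beside their SE. Morphine against saline in old mice ran from -0.37 ± 1.48 for Trh to 0.27 ± 1.82 for Eomes, with a median of 0.195 beside -0.002 over all genes. Old against young mice under morphine ran from -0.36 ± 1.61 for Th to 0.54 ± 1.38 for Shisa3, with a median of 0.073 beside 0.014. The difference of the morphine effects, old minus young, ran from -4.94 ± 3.5 for Eomes to -0.85 ± 2.02 for Shisa3, with a median of -1.89 beside -0.011. In these comparisons 0 of 8 genes passed edgeR's test, where 0.583% of all genes did for morphine in old mice, 9.65% for age under morphine and 0% for the difference of the effects. Unadjusted p was under 0.05 for 0 of 8 in each, where 18.7%, 26.4% and 10.8% of all genes had it. The groups overlapped for all 8 genes in these comparisons, where 10.7% and 17.1% of all genes were higher without overlap for morphine in old mice and for age under morphine.

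By limma-voom 0 of 8 passed in each of the 5 comparisons as well. DESeq2 gave no p for Cdhr1 and Doc2g in any comparison. It gave an adjusted p for 6 of the 8 genes for age under saline, 5 for morphine in young mice, 1 each for age under morphine and morphine in old mice (Th) and 0 for the difference of the effects, and 0 of these were under 0.05. Of the 6 genes with an unadjusted DESeq2 p, it was under 0.05 for 2 for age under saline, 3 in the young morphine comparison, 1 in the difference of the effects and 0 in the other comparisons. The share of all genes with an unadjusted DESeq2 p under 0.05 was not computed, so it is not known whether these counts are unusual. The smallest two-sided p that exact permutation of 3 libraries against 3 allows is 0.1. With the 4 libraries left out, a choice made after the values were seen, old saline was left with replicate 3 alone, which was assumed to vary like the other groups. The median of the 8 genes then went from 1.97 to 0.024 for age under saline and from 2.05 to 0.154 for morphine in young mice, a fall that follows from how the libraries were chosen, as the highest for all 8. Eomes kept a log2 fold change of 3.74 for age under saline, from the 37 reads of old saline replicate 3, and Th kept 2.01 for morphine in young mice.

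**Figure D3:**
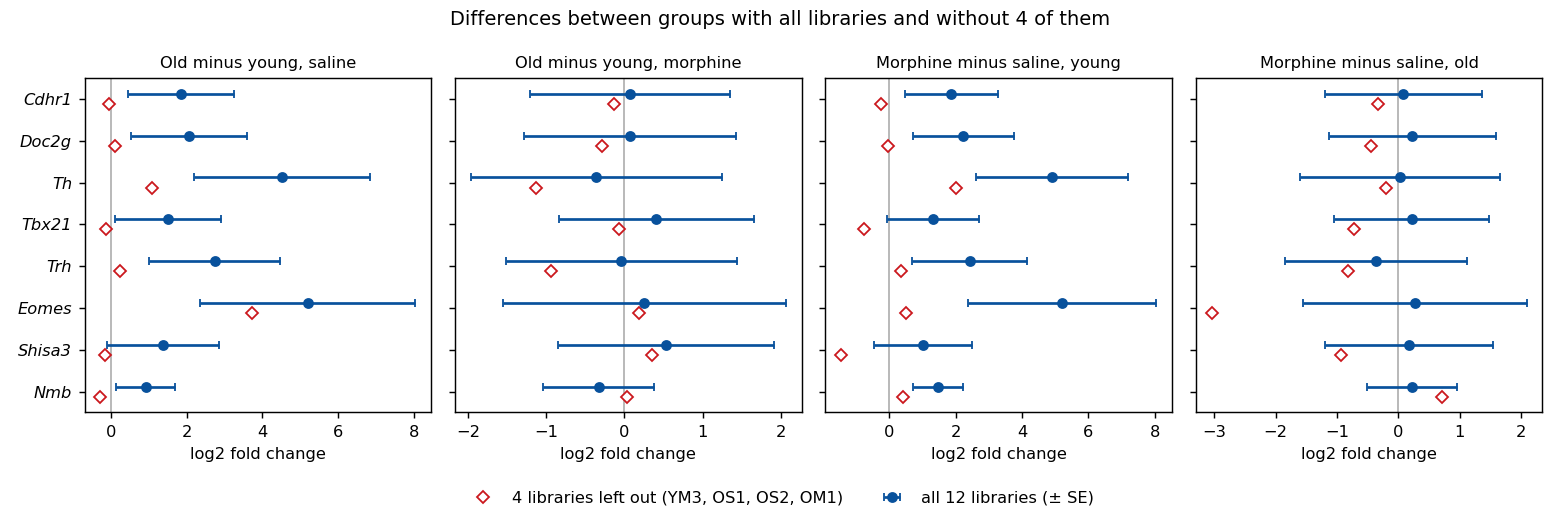
log2 fold change of each of the 8 marker genes (horizontal axes, which differ in scale) in 4 comparisons; filled points with bars are the edgeR estimates ± SE with all 12 libraries, and open diamonds are the estimates with young morphine replicate 3, old saline replicates 1 and 2 and old morphine replicate 1 left out. For age under saline Cdhr1 goes from 1.86 to -0.06 and Eomes from 5.20 to 3.74.

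Other genes of the bulb, and genes of other cells and tissues, were read from 14 lists. Each list was read by how many tested genes had their 4 highest values in the 4 libraries, where 1.31% of all tested genes did. Of 19 genes of bulb interneurons, 7 did: the transcription factor genes Sp8, Sp9, Dlx5 and Pbx3, Gad1, which encodes a GABA-synthesizing enzyme, and Calb2 and Scgn, which encode the calcium-binding proteins calretinin and secretagogin. Sp9 and Dlx5 are named after their values were seen. The lowest of the 4 was at least 2 times the highest of the other 8 libraries for 2 of these 19 genes. The same held for 1 of 7 further output-neuron genes and 1 of 8 catecholamine genes. In the other lists 0 tested genes were that far apart, where 0.0714% of all tested genes were. Calb2 stood at 59.3, 31.7, 42.1 and 55.7 TPM in the 4 libraries and at 10.7 to 15.6 TPM in the others. Scgn stood at 7.04, 1.65, 1.90 and 3.95 TPM and at 0 to 0.294 TPM in the others, close to the pattern of Th. Gad1, which cortical interneurons also express, ranged from 133 to 240 TPM. Meis2, Synpr and Gad2, which follow Gad1 in mean TPM on this list, did not have their 4 highest values in the 4 libraries. They ranged from 122 to 186, 104 to 182 and 54.9 to 87.9 TPM. Summed over the list, the 4 libraries held 934, 701, 811 and 928 TPM, and the groups ranged from 612 to 625 TPM in young saline, 591 to 934 in young morphine, 657 to 811 in old saline and 529 to 928 in old morphine.

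Of 7 further output-neuron genes tested, 2 did, both singled out after their values were seen: Ms4a15, a membrane protein gene, and Barhl2, a homeobox gene. Ms4a15 was at 16.3, 8.43, 2.49 and 10.5 TPM in the 4 libraries, at 0.244 TPM in old saline replicate 3 and at 0 to 0.0647 TPM in the rest. Cck, Tbr1 and Reln, the genes of that list with the highest mean, are also expressed in cortex and ranged from 1100 to 1420, 72.4 to 96.7 and 28.2 to 54.0 TPM. Their highest values were thus less than 2 times their lowest. Lhx1 and Lhx5, homeobox genes of mitral cells singled out afterwards, were too low to be tested, with highest values of 0.318 and 0.192 TPM.

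Olfactory sensory axons end in the bulb, and 2 of 5 tested genes of the olfactory nerve and its ensheathing cells had the same 4 highest libraries: Omp, which encodes the olfactory marker protein, and Prss56, both named after their values were seen. Omp ranged from 0.543 to 2.93 TPM, and its 1.05 TPM in old saline replicate 2 was close to the 1.02 TPM of young morphine replicate 1. S100a5, a calcium-binding protein gene of olfactory sensory neurons that was too rarely read to be tested, stood at 10.9, 1.78, 0.623 and 6.76 TPM in the 4 libraries, at 1.3 TPM in old saline replicate 3 and at 0 to 0.0583 TPM in the other 7. Old saline replicate 3 was thus above those 7 for S100a5, Eomes and, on the TPM scale, Th. Frzb, a secreted Wnt antagonist with the highest mean of the list, ranged from 14.9 to 37.9 TPM. Of 6 neuroblast genes 1 did (Cd24a), where Dcx, the doublecortin gene, ranged from 17.6 to 32.5 TPM.

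Th is made in several kinds of catecholamine neuron, and 2 of 8 tested genes of that list had the same 4 highest libraries. They were Slc6a3, the dopamine transporter gene, at 0.298, 0.324, 0.855 and 0.465 TPM in the 4 libraries and at 0.0146 to 0.104 TPM in the others, and Slc18a2, the vesicular monoamine transporter gene, at up to 0.456 TPM, both named after their values were seen. Ddc, whose enzyme follows tyrosine hydroxylase in the pathway, ranged from 1.74 to 4.26 TPM over all 12 libraries, and Gch1, whose enzyme is needed to make the cofactor of tyrosine hydroxylase, from 0.769 to 1.36 TPM. Nr4a2, which cortex also expresses, ranged from 2.39 to 12 TPM. Of the transcription factor genes of midbrain dopamine neurons, named after their values were seen, En1 was listed at 0 in all 12 libraries, Foxa2 in 11 and Pitx3 in 7, with up to 0.997 TPM, whereas Lmx1b stood at 0.297 to 1.36 TPM in all 12. Summed over the list, the range was 9.21 to 10.9 TPM in young saline, 7.92 to 18.3 in young morphine, 9.04 to 11.0 in old saline and 8.46 to 12.8 in old morphine.

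Other sources of single marker genes were read in the same way. Tbx21 and Eomes are also expressed in cytotoxic lymphocytes, and 0 of 2 tested genes of those cells had the same 4 highest libraries. That list summed to 1.10 to 1.57 TPM in young saline, 1.42 to 2.07 in young morphine, 1.17 to 2.14 in old saline and 1.35 to 1.81 in old morphine, with Cd8a at 0.233 to 0.984 TPM and Nkg7, a cytotoxic granule protein gene, at 0 to 0.625 TPM and listed at 0 in 3 libraries. Trh is abundant in the hypothalamus, and of that region's list 1 gene was tested, Pomc, at 0.536 to 1.83 TPM, and 0 had the same 4 highest libraries. Avp, the vasopressin precursor gene, reached 2.76 TPM and was listed at 0 in 5 libraries. The receptors of both peptides, Trhr, Trhr2 and Nmbr, ranged from 0.544 to 1.85, 0.826 to 2.37 and 0.732 to 3.74 TPM, and 0 of the 3 shared the 4 libraries.

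Lists of other tissue in or near the frontal cortex mostly lacked the pattern. The count was 0 of 11 for cortical excitatory neurons, 0 of 7 for cortical interneurons, 0 of 8 for myelin, 0 of 5 for red cells, 1 of 9 for striatum (Adora2a, named after its values were seen) and 1 of 6 for choroid plexus (Aqp1). Of the 97 tested genes of the 14 lists, 1 passed the adjusted threshold for age under saline, 1 for morphine in old mice, 4 for age under morphine and 0 in the other comparisons, where 0.464%, 0.583%, 9.65% and 0% of all genes did. Sox11, a neuroblast transcription factor, fell with age under saline (log2 fold change -0.42, edgeR adjusted p = 0.0132) and rose with morphine in old mice (0.38, adjusted p = 0.0228). These 2 calls share the old saline libraries, where Sox11 was at 7.11, 8.38 and 8.73 TPM, and old morphine replicate 3 had 7.99 TPM. With age under morphine Tpbg (-0.72, adjusted p = 0.00882), Rgs9 (-0.43, adjusted p = 0.0336), Slc17a7 (-0.37, adjusted p = 0.00563) and Cldn11 (-0.32, adjusted p = 0.0241) fell, the first an interneuron gene of the bulb list, the others of striatum, cortical excitatory neurons and myelin. None of these 5 had its 4 highest values in the 4 libraries. Whether their calls hold in other fits was not looked at. Over all genes, the main fit called 1621 for age under morphine, 78 for age under saline and 98 for morphine in old mice. With counts scaled by transcript length it called 25, 15 and 30.

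The genes most like the 8 were found by distance. Candidates were the other genes with a mean of at least 0.5 TPM, except those named only by a Gm number or a Rik identifier. For each, the log2(TPM + 0.1) profile over the 12 libraries was centred and its root mean square distance to the mean profile of the 8 was taken. Nearest were Frmd7 (0.416), which encodes a FERM-domain protein, Nppa (0.551), the atrial natriuretic peptide precursor, Sp8 (0.556) and Npffr2 (0.562), a receptor of neuropeptide FF. They were followed by Calb2 (0.651), Vipr2 (0.665), a receptor of vasoactive intestinal peptide, Scgn (0.693), Fam196b (0.711), the R-spondin receptor genes Lgr6 (0.712) and Lgr5 (0.712), the water channel gene Aqp1 (0.714) and the zinc-finger gene Sp7 (0.73). The median distance of the 14635 candidate genes was 1.50. All 12 had their 4 highest values in the same 4 libraries, which the choice by distance favours. Frmd7 stood at 7.97, 3.20, 2.50 and 6.56 TPM there and at 0.191 to 0.667 TPM elsewhere, and Npffr2 at 2.57, 0.812, 0.603 and 2.43 TPM there and at 0 to 0.146 TPM elsewhere. Aqp1, like Trh, was highest in old saline replicate 2, at 6.75 TPM.

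Single genes differed in their neighbours. The 2 nearest to Cdhr1 were Frmd7 and Nppa, as they were for Doc2g and Trh, whereas Scgn was nearest to both Th (0.594) and Eomes (0.805). Pbx3 and Sp8 were nearest to Nmb, Ppm1j and Calb2 to Tbx21, and Vipr2 and Ppm1j to Shisa3. Ppm1j, a phosphatase gene, did not share the 4 libraries, since its 1.60 TPM in young saline replicate 2 was above the 0.802 TPM of old saline replicate 2. Cdhr1, Shisa3, Tbx21 and Trh were also at their highest among the 8 lower libraries in young saline replicate 2, at 2.32, 0.864, 0.421 and 1.22 TPM. Of the 8 genes themselves, Cdhr1 lay nearest to their common profile (0.279) and Nmb (0.806) and Th (0.795) farthest.

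**Figure D4:**
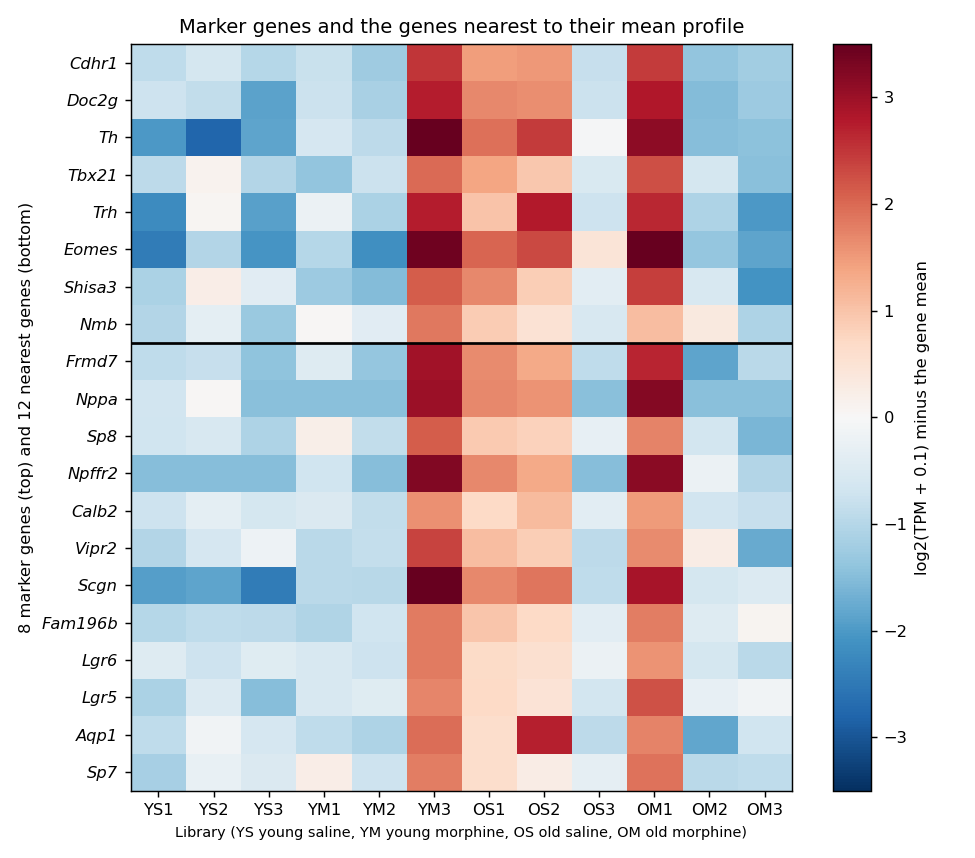
Centred profiles, log2(TPM + 0.1) minus each gene's mean (colour), of the 8 marker genes (above the line) and the 12 genes nearest to their mean (below it) in the 12 libraries; Y and O stand for young and old, S and M for saline and morphine. The 4 columns YM3, OS1, OS2 and OM1 are above the mean (red) for every gene shown, and in OS3 Eomes is the 1 marker gene above its own mean.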

How the data were processed

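Total RNA from prefrontal cortex was depleted of ribosomal RNA and sequenced as KAPA RNA HyperPrep libraries, per the labels' protocols. Per the submitters' processing notes, the authors worked on build GRCm38 with Salmon 1.4.0 and DESeq2 1.30.1. Per the file headers, the deposited values for each transcript are its length, effective length, TPM and estimated count, the last not always whole. Strand setting and annotation release are not given in the sources used here.

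Of 113911 transcripts, 113694 were matched to 35272 genes of GENCODE M21, and 217 (0.079 to 0.099% of reads) were left out. TPM and estimated counts were summed per gene, and the sums of counts were rounded. Genes kept by filterByExpr (16796, all 8 markers among them) entered a test in edgeR 4.0.16 under R 4.3.3 (TMM, robust quasi-likelihood, 1 coefficient per group over all 12 libraries, 8 residual degrees of freedom, threshold 0.05, Benjamini-Hochberg over all genes), and the SE is the size of the log2 fold change over the root of the F statistic. DESeq2 1.42.0 and limma 3.58.1 (voom) served as alternatives, beside DESeq2 size factors, no or a stricter low-count filter, length-scaled counts, a replicate block and leaving out each library. Log2 TPM profiles used a pseudocount of 0.1. The fit was tested on simulated data, in which each changed gene had the same change in every old saline library. That test does not cover genes that are high in only some libraries of a group, as the 8 are. The chi-square per degree of freedom between replicates of a group was at least 5, so none was a copy of another.

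The 8 genes, the 14 lists and the tests were chosen with earlier results of these data known. The text names the 8 genes, list genes past the threshold, up to 4 of each list with the highest mean TPM, the 12 nearest genes and the 2 nearest to each marker; others are said to be named after their values were seen. Some genes of the lists are counted but not reported here by name.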

Additional observations from a re-analysis of the deposited data

How the results depend on the processing

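The number of the 8 genes past the adjusted threshold was 0 wherever an alternative fit gave an adjusted p, including each of the 12 that leave out 1 library. DESeq2 gave one for 6, 1, 5, 1 and 0 of the 8, in the order age under saline, age under morphine, morphine in young, morphine in old and difference of the effects. With the stricter low-count filter, 3 of the 8 could be tested. Same-numbered libraries did not deviate together (correlations -0.209 to 0.066 over 18 pairs, and 0 of 12 libraries correlated best with their own number). These values gave no sign that the numbers pair samples, but with 3 libraries per group they cannot exclude it. With the replicate number as a block 0 of the 8 genes passed, as without it. The counts over all genes under the block were 35 for age under saline, 1102 for age under morphine and 36 for morphine in old mice, against 78, 1621 and 98 without it. Under the block the direction reversed for 6 of 8 genes for morphine in old mice, Eomes to -0.51 among them, and for 2 for age under morphine. Over all genes DESeq2 called 389 for age under saline, 2413 for age under morphine, 164 for morphine in the young, 776 for morphine in the old and 115 for the interaction, and edgeR with length-scaled counts 15, 25, 0, 30 and 0.

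Directions were less stable. Under limma-voom 6 of 8 reversed for morphine in old mice, 3 for age under morphine and 1 for morphine in young mice. For morphine in old mice Eomes, Shisa3, Th, Tbx21, Doc2g and Cdhr1 were at log2 fold changes of -1.83, -0.90, -0.85, -0.66, -0.48 and -0.46. For age under morphine Th, Trh and Nmb were at 0.019, 0.24 and 0.20, and for morphine in young mice Shisa3 was at -0.61. With the 4 libraries left out, an alternative chosen after seeing the data, 4 of 8 reversed in each of the age and the young morphine comparisons, 6 for morphine in old mice and 3 for the difference between the morphine effects. Cdhr1, Tbx21, Shisa3 and Nmb were then at -0.056, -0.12, -0.16 and -0.28 for age under saline. For morphine in young mice Cdhr1, Doc2g, Tbx21 and Shisa3 were at -0.25, -0.05, -0.77 and -1.45, Shisa3 at 0.51 for the difference of the effects and Eomes at -3.04 for morphine in old mice. Leaving out 1 library at a time reversed up to 7 of 8 for morphine in old mice (without old saline 3 or old morphine 1), up to 5 for age under morphine (without young morphine 2 or old morphine 1), and 4 both for morphine in young mice and for the difference between the morphine effects (without young morphine 3). Log2 fold changes for morphine in young mice ranged from -0.27 to 2.40 for Cdhr1, -0.069 to 2.76 for Doc2g, -0.76 to 1.96 for Tbx21 and -1.46 to 1.60 for Shisa3. The range was -3.52 to 1.63 for Shisa3 in the difference of the effects, -3.35 to 0.93 for Trh and -4.50 to 0.84 for Eomes for morphine in old mice, and -4.02 to 2.55 for Th and -2.15 to 3.02 for Shisa3 for age under morphine. For age under saline all 8 stayed positive in each of these 12 fits. Each of these fits kept a high old saline library and no high young saline library, so the sign could hardly change. The cause of these reversals was not tested.

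The log2 ratio of Th to the output-neuron markers moved by more than 1 SD in old saline, from -2.79 to -3.61 with CPM, -3.23 with protein-coding transcripts alone and -2.17 with 4 output-neuron markers alone, and in young morphine with these 4 from -3.30 to -2.33. Leaving out 1 library gave -5.89 to -4.71 in young saline, -3.75 to -3.06 in young morphine, -3.00 to -2.68 in old saline and -4.38 to -3.31 in old morphine. With protein-coding transcripts alone no value was given for young saline and old morphine, where Th was listed at 0 in a library. The largest number of the 8 genes with their highest level in 1 library was 4, and 4 to 7 when each library was left out.

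Depth limits the low values: Eomes, Tbx21 and Th rested on 0 to 9 reads in young saline replicates 1 and 3. At 3 libraries per group and the spread seen here, log2 fold changes of up to 5.21 did not pass, so a missing call says little about the size of a difference.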
